A study of Mus musculus with 4 samples.

Results

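Plasmacytoid dendritic cells (pDCs) were examined in 4 single-cell RNA libraries of mouse tibial muscle, 1 library from an Uninjured group and 1 from each of 3 times after injury, given as days post injury (1 dpi, 3 dpi and 7 dpi). Injury was by cardiotoxin, a snake venom toxin that kills muscle fibres. A cell was taken as a pDC when it held at least 2 unique molecular identifiers (UMIs, each marking 1 captured RNA molecule) of *Siglech*, at least 1 of *Bst2*, at least 1 of the leukocyte gene *Ptprc* and at most 2 of *C1qa*, *C1qb* and *C1qc* together, with at most 10% of its UMIs from mitochondrial genes. This rule found 195 members among 62665 cells. There were 3 in the Uninjured library, 62 at 1 dpi, 122 at 3 dpi and 8 at 7 dpi. The members were chosen by these measured values, so the levels of *Siglech*, *Bst2*, *Ptprc* and the complement genes in them describe the choice and are not findings.

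All mice were *Nse-Bmp4* transgenic animals on the C57BL/6 background, 6 to 8 weeks old, in which the rat neuron-specific enolase promoter drives *Bmp4*, a bone morphogenetic protein, and which form bone in injured muscle. The uninjured controls carried the same transgene, so the series used here holds no muscle without it. Each library pooled 3 muscles and no time point had a second library, so no test between time points was possible. Every interval given is a 95% interval that covers counting error only and not the difference between animals. The libraries held 12031, 11722, 15160 and 23752 cells in the order Uninjured, 1, 3 and 7 dpi, and this order is kept in every list of 4 values.

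Plasmacytoid dendritic cells are the dendritic cells best known for sensing viral and self nucleic acids in endosomes through Toll-like receptors 7 and 9 and for releasing type I interferon. They develop in bone marrow under the transcription factor TCF4 (also called E2-2), together with IRF8, SPIB, RUNX2, BCL11A and ZEB2, and they share with B cell progenitors genes such as *Ly6d*, *Dntt* and *Ighm*. In mice they are told apart by Siglec-H, a sialic acid binding lectin, and BST2, an interferon-inducible membrane protein. When resting they hold little MHC class II compared with conventional dendritic cells, and they raise it as they mature. In muscle they are scarce, and they enter inflamed tissue from the blood.

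The label was checked against genes that the rule did not use. *Irf8* was detected in 3 of 3, 62 of 62, 113 of 122 and 8 of 8 members, and *Tcf4* in 3 of 3, 62 of 62, 120 of 122 and 8 of 8. Of 25 further genes known from mouse pDCs, a median of 12, 15.5, 15 and 17.5 were detected per member. The median depth per member was 6722, 9058, 5714 and 4769 UMIs, against 8629, 5562, 4214 and 3083 over all cells of the same libraries. The markers thus fitted the label in most members, with exceptions at 3 dpi.

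These exceptions stood apart before any comparison was made. At 3 dpi 13 members held under 3 UMIs of *Irf8*, and their *H2-Aa*, *H2-Ab1*, *H2-Eb1* and *Cd74* together had a median of 37640 counts per 1000000 UMIs (CPM) per cell, against 4451 CPM over all 122 members. A further 11 members at 3 dpi, 3 at 1 dpi and 1 in the Uninjured library took more than 1% of their UMIs from the 8 genes of a stromal list (*Col1a1*, *Col3a1*, *Dcn* and others) or from the 8 genes of a neutrophil list (*S100a8*, *S100a9* and others). In the 11 members at 3 dpi the share from both lists was 2.14 to 10.4% of UMIs, and 8 of the 11 were also mitotic by their transcripts. A stricter set therefore kept members with at least 3 UMIs of *Irf8* and at most 1% of UMIs from each of the stromal and neutrophil lists, which left 167 members: 2 in the Uninjured library, 59 at 1 dpi, 98 at 3 dpi and 8 at 7 dpi. The stricter set was chosen after its values were seen, and its ratios stand beside several of those over all members. Levels in CPM are over all members unless the stricter set is named.

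Over all 3 dpi members the stromal list amounted to 7693 CPM, with 8 of 8 of its genes at 20 or more UMIs over both libraries, and *Sparc* was its most abundant gene with 1938 UMIs. The same list was at 15539 CPM in the Uninjured members, where 98.1% of it came from 1 cell, at 2014 CPM at 1 dpi and at 1166 CPM at 7 dpi. The neutrophil list was at 0, 4512, 3572 and 0 CPM, and 1 cell held 91.7% of the 1 dpi value. At 3 dpi the members of the stricter set had the stromal list at 833 CPM and the neutrophil list at 53.8 CPM. The part of these transcripts in the results was not tested beyond giving the values with and without the members that held them.

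Barcodes were also compared with each other. No member had a barcode that was a member in another library, while 30 to 95 barcodes of any cell were shared between pairs of libraries. At 3 dpi 3 members of 18760, 19059 and 20240 UMIs had counts that differed from each other by about the sampling noise, with an index of dispersion of 1.04 to 1.09, where 1 is pure counting noise, against a median of 5.13 over 3571 pairs. Their barcodes differed at 12 or more bases. All 3 failed the stricter rule, since each took 2.63 to 2.77% of its UMIs from stromal and 2.91 to 3.503% from neutrophil genes, and each was mitotic.

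**Figure D1:**
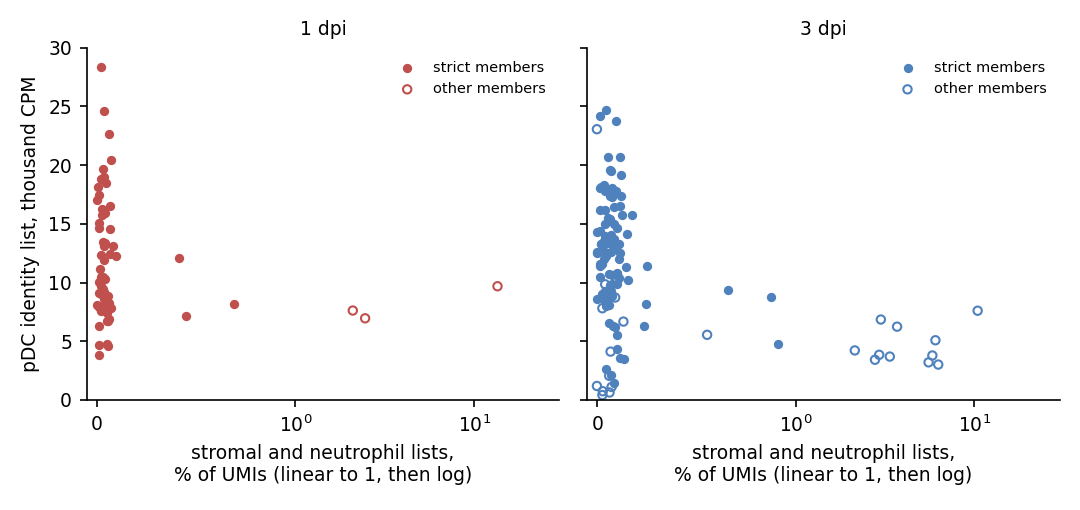
Each point is 1 pDC at 1 or 3 dpi, with the share of its UMIs from the stromal and neutrophil lists on the x axis (percent, linear to 1 and logarithmic beyond) and the summed level of 25 pDC genes on the y axis (in units of 1000 CPM). Filled points are the 59 and 98 members of the stricter set and open points the other members, of which the 11 at 3 dpi beyond 1% have a median identity level of 3845 CPM.

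At the edge of the rule the cells differed between time points. Just outside it, 8 cells at 1 dpi and 33 at 3 dpi held exactly 1 UMI of *Siglech* and met every other condition, with a median of 2 and 4 UMIs of *Irf8* and of 8 and 6 of the 25 identity genes detected. Just inside it, 2 members at 1 dpi and 14 at 3 dpi held exactly 2 UMIs of *Siglech*. Those at 1 dpi had a median of 52 *Irf8* UMIs and 15 identity genes, and those at 3 dpi had 2 and 8. By these genes the members just inside the limit resembled the other members at 1 dpi, and at 3 dpi they resembled the cells just outside it.

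The first question was how many pDCs the muscle held at each time. Members made up 0.208% (Clopper-Pearson 95% interval 0.0429 to 0.606) of the 1443 *Ptprc* cells in the Uninjured library. At 1 dpi the share was 1.09% (0.836 to 1.39) of 5696 *Ptprc* cells, and at 3 dpi it was 2.33% (1.94 to 2.78) of 5230. At 7 dpi it was 0.224% (0.0966 to 0.440) of 3579. The share was thus highest at 3 dpi, next at 1 dpi, and low in the Uninjured and 7 dpi libraries, whose intervals overlap each other and lie under both of the others.

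Among the members of the stricter set the share was 0.139% (0.0168 to 0.4998), 1.04% (0.789 to 1.33), 1.87% (1.52 to 2.28) and 0.224%, and without the 3 matching barcodes it was 2.28% at 3 dpi. Thinning every cell to 1000 UMIs, which removes the difference in depth, left 0, 17, 28 and 3 members among 691, 3074, 2857 and 1793 *Ptprc* cells. These thinned shares were 0% (0 to 0.532), 0.553% (0.322 to 0.884), 0.980% (0.652 to 1.41) and 0.167% (0.0345 to 0.488). The order of 1 and 3 dpi over the other libraries was kept under each of these, but after thinning the interval of 1 dpi overlapped those of all 3 other libraries. Removing every cell with 3 or more UMIs of another lineage, from the denominator too, gave 1.47, 19.0, 9.20 and 0%, which turned the order of 1 and 3 dpi, whose intervals then overlapped. Over all cells of a library instead of *Ptprc* cells, the shares were 0.0254, 0.571, 0.864 and 0.0347%.

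Cells with transcripts of bone marrow progenitors were also more numerous at 1 and 3 dpi than in the Uninjured and 7 dpi libraries. Cells with at least 2 UMIs each of *Elane* and *Mpo*, proteases and peroxidase of immature granulocytes, numbered 3, 195, 282 and 0. Those with *Vpreb1* and *Igll1*, the surrogate light chain of B cell progenitors, numbered 1, 59, 19 and 1, and those with *Klf1* and *Car1* of erythroid progenitors 0, 44, 16 and 1. Like the pDCs, the first kind was more numerous at 3 dpi than at 1 dpi, and the other two were less so. Their part in the pDC share was not tested.

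**Figure D2:**
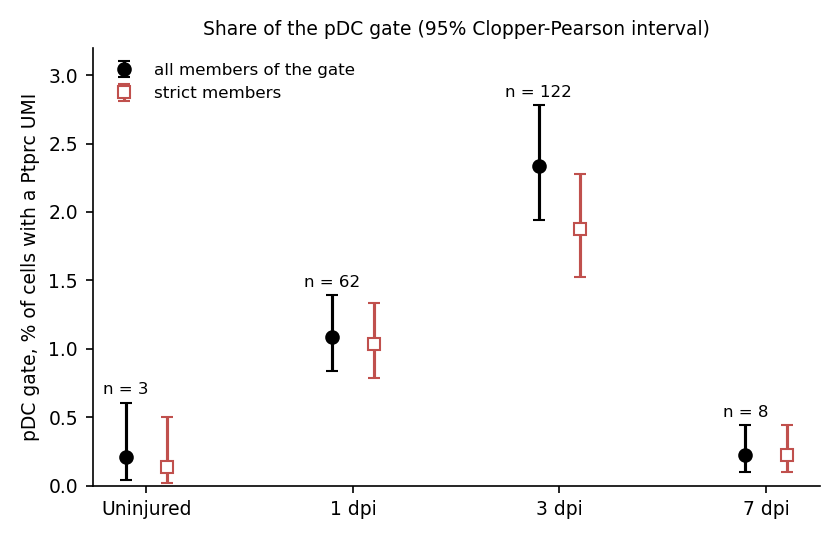
Members as a percentage of *Ptprc* cells in the Uninjured, 1, 3 and 7 dpi libraries, for all members (black circles) and the stricter set (red squares), with 95% Clopper-Pearson bars and the number of members above each. The 1 and 3 dpi shares, 1.09 and 2.33%, lie above those of the Uninjured and 7 dpi libraries, 0.208 and 0.224%.

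The genes that the members shared beyond the rule were found against 2 other gates of the same libraries, which were conventional type 1 dendritic cells (cDC1s, *Xcr1*) and conventional type 2 dendritic cells (cDC2s, *Cd209a*), each without *Siglech*. *Ccr9*, the receptor for the gut and thymus chemokine CCL25, came first by the ratio to the mean of both gates in the lowest library. Its level was 522, 748, 687 and 1329 CPM in the pDCs and at most 3.08 CPM in either of the other gates of any library. *Ly6d*, a surface protein of lymphoid progenitors and B cells, was second with 424, 1705, 683 and 895 CPM against at most 4.65 CPM elsewhere. *Klk1*, a kallikrein serine protease, came next with 359, 213, 317 and 976 CPM and no UMI in either of the other gates. By summed level these genes were thus higher in pDCs than in both kinds of conventional dendritic cell in every library, as a ranking by the lowest library requires. Not every member held them, since *Ly6d* was detected in 69 of 122 members at 3 dpi, and the Uninjured levels rest on 3 members. *Lair1*, an inhibitory receptor for collagen, had 228.5, 563.9, 417 and 922 CPM against at most 15.9 CPM elsewhere. *Runx2*, best known from bone formation and also needed for pDCs to leave the marrow, had 326, 1016, 685 and 244 CPM against at most 37.0 CPM elsewhere.

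The first 20 genes by this measure also held *Tcf4*, whose level was at least 11.3 times the mean of the other gates in every library, and *Dntt*, the terminal transferase of lymphoid progenitors (at least 14.7 times). *Smim5* (at least 8.79 times) and the pDC factors *Bcl11a* (at least 6.54 times) and *Spib* (at least 6.15 times) ranked lower. A gate without a UMI entered at a bound of 3 UMIs. Since *Siglech* chose one side and its absence the other, these ratios describe the gates and no test was made.

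*Ccr9* was detected in 75.8% of members at 1 dpi and 80.3% at 3 dpi, against 0 and 1.25% of cDC2s, whose median depths of 10508 and 5975 UMIs were above those of the members. *Cd4* was detected in 27.4 and 29.5% of members against 1.27 and 0.534% of cDC2s. *Itgax*, the integrin CD11c of dendritic cells, was detected in 33.9 and 22.1% of members and in 33.1 and 28.3% of cDC2s, so that it did not separate them. Both *Cd4* and *Itgax* were detected together in only 0, 4, 6 and 1 of the members.

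**Figure D3:**
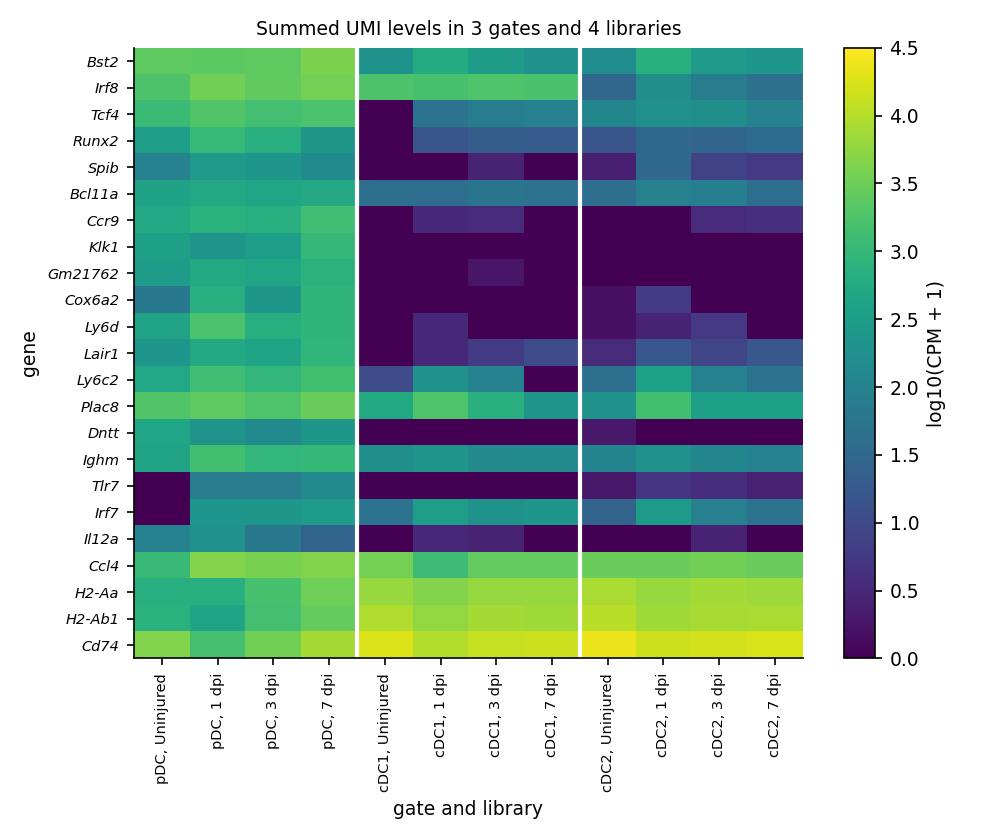
Levels of 23 genes, as log10(CPM + 1), in pDCs, cDC1s and cDC2s of each library. *Ccr9*, *Klk1* and *Lair1* stand out in the pDC columns of all 4 libraries, while the MHC class II genes are lower there than in the cDC columns.

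Among the pDC identity genes, levels at 1 and 3 dpi were mostly close, and a few differed. Of 25 genes, 24 had at least 20 UMIs over both libraries, of which 1 was at least 2 times as high at 3 dpi and 2 were at most 0.5 times as high, with a median ratio of 0.955. Over all 8030 genes with as many UMIs the median ratio was 0.989, and 7.81% were at a ratio of at least 2 and 3.67% at a ratio of at most 0.5. With the stricter set 1 of 24 was higher and 1 lower, with a median ratio of 1.201, where 3.87% and 3.94% of 6879 genes were past the same ratios.

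*Ly6d*, at 424, 1705, 683 and 895 CPM as given before, was 0.401 times as high at 3 dpi as at 1 dpi (0.363 to 0.442). It was detected in 60 of 62 members at 1 dpi and in 69 of 122 at 3 dpi, and in the stricter set the ratio was 0.571 (0.515 to 0.633). *Cox6a2*, a subunit of cytochrome c oxidase otherwise known from muscle, was at 65.3, 657, 238 and 868 CPM, a ratio of 0.363 (0.307 to 0.427), and of 0.471 (0.395 to 0.560) in the stricter set. Both genes were thus lower at 3 dpi than at 1 dpi with either set of members. *Cd209d*, a C-type lectin, went the other way at 43.7 and 158 CPM, a ratio of 3.61 (2.42 to 5.54) with all members and of 3.97 (2.60 to 6.26) in the stricter set. *Plac8*, one of the most abundant identity genes, had 1893, 2409, 1854 and 3038 CPM and *Ly6c2* 489.7, 1341, 966 and 1356 CPM.

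Of the 20 transcription factors, 17 had enough UMIs, of which 2 were higher at 3 dpi, *Id2* and *Id3*, and 1 was lower, *Sox4*, beside 7.81% and 3.67% of all genes. Of 17 factors with enough UMIs in the stricter set 1 was higher, *Id3*, and 1 lower, *Sox4*, beside 3.87% and 3.94%. Without mitotic members 0 of 17 were higher and 1 was lower, *Sox4*, beside 5.15% and 3.2% of all genes. *Tcf4*, the factor that fixes pDC fate, was at 1175, 1907, 1444 and 1709 CPM, and *Irf8* at 1730.2, 3473, 2548 and 3634 CPM. Their ratios of 3 to 1 dpi were 0.757 (0.701 to 0.818) and 0.734 (0.693 to 0.777) with all members and 0.942 (0.868 to 1.02) and 0.985 (0.929 to 1.05) in the stricter set, whose rule used *Irf8*. With the stricter set the interval of *Tcf4* thus included 1. That set left out 3 members at 1 dpi and 24 at 3 dpi by their *Irf8*, stromal and neutrophil UMIs. The part of this choice in the *Tcf4* ratio was not tested. *Spib* had 256 and 227 CPM at 1 and 3 dpi, *Bcl11a* 519 and 462 CPM and *Zeb2* 466 and 504.3 CPM, and each of these ratios had an interval that included 1. In the stricter set the ratios were 1.22 (0.984 to 1.51), 1.16 (1.002 to 1.35) and 1.23 (1.05 to 1.43), so that *Spib* and *Bcl11a* turned direction and the intervals of *Bcl11a* and *Zeb2* lay above 1.

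*Sox4*, a factor of immature lymphoid and myeloid cells, was at 407 CPM at 1 dpi and 189 CPM at 3 dpi, a ratio of 0.464 (0.381 to 0.563) that was 0.415 (0.328 to 0.523) in the stricter set. *Id3*, an inhibitor of E proteins such as TCF4, was at 40.8 and 185 CPM, a ratio of 4.54 (3.03 to 7.04) with all members and 5.29 (2.82 to 10.8) in the stricter set. *Id2*, a further inhibitor of E proteins that is high in conventional dendritic cells, was at 43.7 and 89.4 CPM, a ratio of 2.05 (1.33 to 3.22) and, in the stricter set, 1.84 (1.15 to 2.98). *Id3* was detected in 12 of 62 and 26 of 122 members. Without the mitotic members neither *Id3* nor *Id2* was counted at a ratio of at least 2.

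The genes of nucleic acid sensing were present with little difference between 1 and 3 dpi. Of 20 genes 19 had enough UMIs, 1 was higher at 3 dpi (*Lgmn*, an endosomal protease that cuts Toll-like receptors) and 1 lower (*Traf6*, a ubiquitin ligase of their signal, with 23 and 14 UMIs), with a median ratio of 1.07, beside 7.81% and 3.67% of all genes. *Tlr7*, the endosomal sensor of single-stranded RNA, was at 0, 78.7, 76.1 and 136 CPM. *Tlr7* was detected in 41.9 and 35.2% of members at 1 and 3 dpi against 4.46 and 1.78% of cDC2s. *Tlr9*, the sensor of CpG DNA, was seen with only 2 and 3 UMIs. *Unc93b1*, which carries these receptors to endosomes, had 424, 463, 389.5 and 461 CPM, and *Irf7*, the factor that switches on the interferon alpha genes, had 0, 226, 244 and 298 CPM.

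Transcripts of the interferons themselves were almost absent. The 20 type I and III interferon genes together had 0, 6, 8 and 0 UMIs among 30632, 686245, 906233 and 36872 UMIs of the members. Of these, 5 of the 6 UMIs at 1 dpi were *Ifna2* in 1 cell. *Ifnb1* made up 1 UMI at 1 dpi and 6 at 3 dpi. A count of 0 allows up to 97.9 CPM in the Uninjured and 81.4 CPM in the 7 dpi members at 3 UMIs, so these libraries were too shallow in pDCs to set them apart from the 8.74 and 8.83 CPM of 1 and 3 dpi.

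The interferon-stimulated genes, which cells raise in response to interferon, amounted to 2840 CPM (2275 to 3503), 2444 CPM (2328 to 2564), 2024 CPM (1932 to 2119) and 2197 CPM (1745 to 2730) over 36 genes. In the Uninjured members 59.8% of this sum came from 1 of 3 cells. In cDC2s of the same libraries the sum was 2097, 6746, 3176 and 2779.6 CPM, and in cDC1s 1436, 4460, 3457 and 2162 CPM. The list was thus highest at 1 dpi in both kinds of conventional dendritic cell, whereas in pDCs the intervals of the Uninjured, 1 dpi and 7 dpi libraries overlapped. As in both kinds of conventional dendritic cell, the list was lower at 3 dpi than at 1 dpi in pDCs, at a ratio of 0.828 (0.775 to 0.885). In pDCs the log2 ratio of 1 dpi to Uninjured, -0.22, depended on the choice of members, at 1.03 with at least 3 UMIs of *Siglech* and at -2.56 without cells that held 3 or more UMIs of another lineage. Since these values come from 1 library each, the difference between cell types was not tested.

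Of the 36 genes 24 had enough UMIs in pDCs, 2 were higher at 3 dpi than at 1 dpi (*Ifit1* and *Usp18*) and 2 were lower (*Oasl1* and *Ifi27l2a*), with a median ratio of 1.15, beside 7.81% and 3.67% of all genes. Of 21 genes in the stricter set 1 was higher and 2 were lower, beside 3.87% and 3.94%. *Ifi27l2a*, the most abundant of them, was at 1534, 838, 349.8 and 922 CPM, a ratio of 3 to 1 dpi of 0.417 (0.363 to 0.480) and of 0.473 (0.405 to 0.551) in the stricter set. *Isg15*, a ubiquitin-like protein, was at 32.6, 83.1, 118 and 108 CPM. *Ifit1*, an RNA-binding effector, had 4 and 31 UMIs, a ratio of 5.87 (2.08 to 22.9) that was 1.56 (0.370 to 7.52) in the stricter set. None of the 8 interferon receptor and signalling genes was past either ratio.

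Some antigen presentation genes, among them *H2-Aa*, *H2-Ab1*, *H2-Eb1*, *Cd74* and *Ciita*, were higher at 3 dpi than at 1 dpi. MHC class II molecules are pairs of an alpha and a beta chain that carry peptides to CD4 T cells, and they are assembled on the invariant chain CD74 under the coactivator CIITA. Of 17 genes for MHC class II and costimulation, 15 had enough UMIs, 7 were higher at 3 dpi and 0 were lower, with a median ratio of 1.87, beside 7.81% and 3.67% of all genes. *H2-DMa*, *H2-DMb1*, *H2-Oa* and *H2-Ob* were not among the 7. With the stricter set 5 of 12 were higher (*H2-Ab1*, *H2-Eb1*, *Ciita*, *Ccr7* and *Fscn1*) and 0 lower, with a median ratio of 1.83, beside 3.87% and 3.94% of all genes. Of these, *Ccr7* had 9 and 18 UMIs there, a ratio of 2.08 (0.887 to 5.26) whose interval included 1, and *Fscn1* had 1 and 21 UMIs. The costimulatory genes *Cd86* and *Cd83* were at ratios of 1.02 (0.524 to 2.04) and 0.966 (0.676 to 1.39) with all members and of 0.612 (0.2504 to 1.41) and 1.00 (0.683 to 1.48) in the stricter set.

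The MHC class II genes lie side by side on mouse chromosome 17 (GENCODE M21, build GRCm38). *H2-Aa*, the alpha chain of I-A, lies at chr17:34282744-34287823 on the minus strand, *H2-Ab1*, the I-A beta chain, at chr17:34257689-34269419 on the plus strand, and *H2-Eb1*, the I-E beta chain, at chr17:34305867-34316674 on the plus strand. Promoters of MHC class II genes are known to hold a Y box, an inverted CCAAT element bound by the factor NF-Y, next to the X box through which CIITA acts. The motif searched was CTGATTGG on both strands (reverse complement CCAATCAG) in the RefSeq promoters of build GRCm38.p6, from 250 bases before to 50 bases after each start. It was found in 1346 of 32851 promoters, or 4.10%, and counted by gene in 1271 of 27025, or 4.70%. Of the 10 MHC class II genes in the list 7 had a promoter entry, and 3 held the motif, *H2-Aa*, *H2-Eb1* and *H2-Oa*. The 130 bases before the start of the first 2 are shown because both genes were higher at 3 dpi than at 1 dpi, 5′ to 3′ on the strand of the gene, with the motif in capitals. The *H2-Aa* stretch is chr17:34287824-34287953 on the minus strand, and its motif begins 51 bases before the start. The *H2-Eb1* stretch is chr17:34305737-34305866 on the plus strand, and its motif begins 62 bases before the start.
H2-Aa: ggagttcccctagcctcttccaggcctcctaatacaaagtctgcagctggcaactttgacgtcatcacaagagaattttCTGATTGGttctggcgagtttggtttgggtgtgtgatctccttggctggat
H2-Eb1: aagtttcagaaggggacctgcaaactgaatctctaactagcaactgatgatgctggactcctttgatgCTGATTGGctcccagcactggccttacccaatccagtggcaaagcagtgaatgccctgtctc
A match is a description of the letters and does not show that a factor was bound there.

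*H2-Aa* was at 653, 653, 1553 and 3200.3 CPM, *H2-Ab1* at 751, 427, 1441 and 2739 CPM and *H2-Eb1* at 686, 233, 1055 and 1329 CPM. *Cd74*, the invariant chain, was at 4375, 1511, 3438 and 7811 CPM. All 4 genes were lowest, or level with the lowest, at 1 dpi and highest at 7 dpi, where the Uninjured and 7 dpi values rest on 3 and 8 members. The ratio of 3 to 1 dpi was 2.38 (2.14 to 2.65) for *H2-Aa*, 3.38 (2.97 to 3.84) for *H2-Ab1*, 4.52 (3.82 to 5.38) for *H2-Eb1* and 2.28 (2.12 to 2.44) for *Cd74*. *Ciita* had 13 and 53 UMIs, a ratio of 3.09 (1.66 to 6.17). The stricter set gave ratios of 1.82, 2.06, 2.21, 1.85 and 2.69 for the same 5 genes, smaller for each of them and each with an interval above 1.

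Summed over *H2-Aa*, *H2-Ab1*, *H2-Eb1* and *Cd74*, the level was 6464 CPM (5595 to 7430) in the Uninjured members, 2824 CPM (2700 to 2953) at 1 dpi, 7487 CPM (7310 to 7667) at 3 dpi and 15079 CPM (13852 to 16386) at 7 dpi. Of the Uninjured sum 69.2% came from 1 of 3 cells. In cDC2s the same sum was 51826, 33023, 37921 and 39950 CPM and in cDC1s 41695, 23587, 31790.2 and 33622 CPM, so that in every library the pDCs were lower than both. The 24 members of 3 dpi outside the stricter set had 10842 CPM and those inside it 5727 CPM.

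The members of a library differed widely in these 4 genes. At 1 dpi the level per cell had a lowest value of 0, a median of 428 and a highest of 18066 CPM, and 34 of 62 members, 54.8% (41.7 to 67.5), were under 1000 CPM. At 3 dpi the values were 0, 4451 and 69062 CPM, and 40 of 122 members, 32.8% (24.6 to 41.9), were under 1000 CPM. The medians of the stricter set were 386 and 4853 CPM, with 54.2% (40.8 to 67.3) and 30.6% (21.7 to 40.7) of members under that level. The 8 members at 7 dpi lay between 4748 and 19389 CPM, and the 3 Uninjured members were at 0, 9593 and 20381 CPM. Few cells lay near the limit at 1 dpi, with 3 members from 500 to 2000 CPM, and more did at 3 dpi, with 22.

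**Figure D4:**
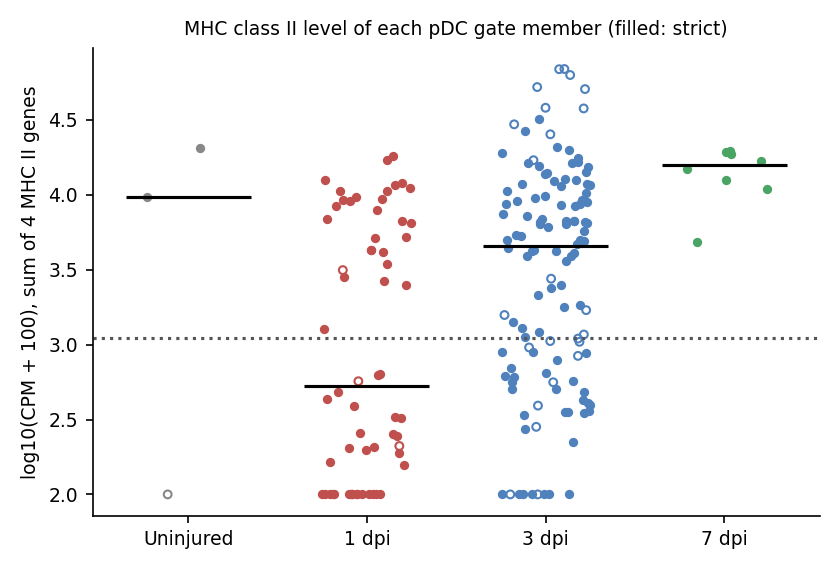
Summed level of *H2-Aa*, *H2-Ab1*, *H2-Eb1* and *Cd74* in each pDC of the 4 libraries, as log10(CPM + 100), with filled points for the stricter set, open points for other members, a line at the median and a dotted line at 1000 CPM. At 1 dpi 34 of 62 members lie under the dotted line, at 3 dpi 40 of 122, and at 7 dpi none of 8.

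Members of the stricter set on either side of 1000 CPM also differed in other genes. This limit was chosen after the values were seen and marks a range, not a cell type. At 1 dpi *Ccr9* was detected in 27 of 27 members at or over the limit, with a median of 1174 CPM per cell, and in 18 of 32 under it, with a median of 133 CPM, at a median depth of 8409 and 9151 UMIs. At 3 dpi *Ccr9* was detected in 61 of 68 and 22 of 30 members, with medians of 1044 and 367 CPM. *Ccr9* thus went with MHC class II at both times. *Klk1* was detected in 16 of 27 and 5 of 32 members at 1 dpi and in 39 of 68 and 7 of 30 at 3 dpi, and *Cd4* in 12 of 27 and 4 of 32 at 1 dpi and in 28 of 68 and 2 of 30 at 3 dpi. *Siglech*, which chose the members, had medians of 2274 and 773 CPM at 1 dpi and of 1944 and 969.6 CPM at 3 dpi. *Tcf4* had medians of 2597 and 1882 CPM at 1 dpi and of 2040.5 and 2246 CPM at 3 dpi, so that their order turned. Summed over the cells *Tcf4* was higher at or over the limit at both times. These sums were 2552 and 1631 CPM at 1 dpi and 2042 and 1560 CPM at 3 dpi.

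Genes of progenitors did not all go one way between these members. Those named here were chosen after their values were seen. *Sox4* was detected in 23 of 32 members under the limit and 8 of 27 at or over it at 1 dpi, and in 16 of 30 and 18 of 68 at 3 dpi. *Flt3*, the receptor for the cytokine that drives dendritic cell development, was detected in 28 of 32 and 14 of 27 members at 1 dpi and in 18 of 30 and 29 of 68 at 3 dpi. *Ly6d* had a median of 1917 CPM under the limit and 978 CPM at or over it at 1 dpi. At 3 dpi its medians were 229 and 428 CPM, so that their order turned. Summed over the cells it was higher under the limit at both times, at 1903 and 1289 CPM at 1 dpi. The sums at 3 dpi were 1279 and 758 CPM. *Dntt* went the other way at both times, detected in 17 of 32 members under the limit and 19 of 27 at or over it at 1 dpi, and in 9 of 30 and 34 of 68 at 3 dpi. The 4 mitotic genes *Mki67*, *Top2a*, *Birc5* and *Cdk1* summed to 1354 CPM under the limit and 13.1 CPM at or over it at 1 dpi, and to 751 and 60.0 CPM at 3 dpi.

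Division genes as a group were lower at 3 dpi. The 16 cycling genes amounted to 3787, 4184, 2459 and 705 CPM, of which 94.0% in the Uninjured library came from 1 cell. All 16 had enough UMIs, 0 were higher and 4 were lower at 3 dpi (*Mki67*, *Top2a*, *Stmn1* and *Hmgb2*), with a median ratio of 0.632, beside 3.67% of all genes lower. Of the same 16 genes 5 were lower in the stricter set, with a median ratio of 0.545, beside 3.94% of all genes lower. *Top2a*, the topoisomerase of dividing cells, had 0, 356, 106 and 0 CPM, a ratio of 3 to 1 dpi of 0.298 (0.233 to 0.379), and *Hmgb2*, a chromatin protein, had 1273, 1204, 563.9 and 379.7 CPM, a ratio of 0.468 (0.419 to 0.524).

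Members with at least 5 UMIs over the 4 mitotic genes numbered 1, 13, 16 and 0, which is 21.0% (11.7 to 33.2) at 1 dpi and 13.1% (7.69 to 20.4) at 3 dpi. Those in the stricter set were 11 of 59, 18.6% (9.69 to 30.9), and 8 of 98, 8.16% (3.59 to 15.5). The intervals of the 2 times overlap with either set. Mitotic members were deeper than the rest, with a median of 20624 against 8542 UMIs at 1 dpi and 18910 against 5259 UMIs at 3 dpi. At 1 dpi they held 2952 CPM of the stromal and 11363 CPM of the neutrophil list, against 1417 and 150.2 CPM in the other members, and at 3 dpi they held 16596 and 10265 CPM. *Ccr9* was detected in 3 of 13 mitotic and 44 of 49 other members at 1 dpi. At 3 dpi it was detected in 9 of 16 and 89 of 106. The part of mitotic members in the split of *Ccr9* by MHC class II was not tested. Without the mitotic members the ratio of the cycling list was close to 1, at -0.071 on the log2 scale. The 4 genes that pick these members belong to that list.

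Of the genes of trafficking, 1 of 13 with enough UMIs was at a ratio of at most 0.5 (*Cxcr4*) and 0 at a ratio of at least 2, with a median of 0.717, beside 3.67% and 7.81% of all genes. With the stricter set 1 of 12 was lower (*Cx3cr1*) and 1 higher (*Ccr7*), with a median of 0.877, beside 3.94% and 3.87%. The *Ccr7* ratio, 2.08 (0.887 to 5.26), had an interval that included 1. *Cxcr4*, the receptor that holds immature cells in bone marrow, was at 65.3, 507, 238 and 27.1 CPM, a ratio of 0.470 (0.395 to 0.559) and of 0.608 (0.508 to 0.725) in the stricter set. Its level was thus highest at 1 dpi. *Ccr9* had a ratio of 0.920 (0.817 to 1.04) with all members and of 1.19 (1.05 to 1.35) in the stricter set, so that its direction depended on the set.

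Among the chemokines and cytokines one gene dominated. *Ccl4*, a chemokine for T cells and NK cells, was at 1077, 4538, 3730 and 4394 CPM and was detected in 60 of 62 and 112 of 122 members at 1 and 3 dpi. Its ratio of 3 to 1 dpi was 0.822 (0.783 to 0.863), and 0.946 (0.898 to 0.998) in the stricter set. *Ccl3* was far lower, at 294, 182, 162 and 0 CPM. Of the 22 genes of the list 16 had enough UMIs, of which 6 were higher at 3 dpi and 3 lower, beside 7.81% and 3.67% of all genes. In the stricter set 2 of 13 were higher and 4 lower, beside 3.87% and 3.94%.

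Several of the higher genes depended on the members outside the stricter set. *Ccl2*, a monocyte chemokine, had 17 and 542 UMIs, a ratio of 24.1 (14.9 to 41.8), which was 0.795 (0.355 to 1.74) in the stricter set. *Il1b* had 6 and 186 UMIs, a ratio of 23.5 (10.6 to 64.8) that was 4.99 (1.87 to 16.8) in the stricter set. *Csf1*, the macrophage growth factor, had 5 and 106 UMIs in 4 and 14 members, a ratio of 16.1 (6.67 to 50.5) that was 9.71 (3.00 to 49.9) in the stricter set. The direction of *Il1b* and *Csf1* was thus the same with both sets and that of *Ccl2* was not. Among the lower genes, *Il12a*, which encodes the p35 chain of interleukin 12, was at 186 and 64.0 CPM, a ratio of 0.343 (0.247 to 0.471) and of 0.468 (0.327 to 0.661) in the stricter set. *Ccl5* had 122 and 35 UMIs, with 62% of the 1 dpi count in 1 cell.

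Growth factor receptors, secretory machinery and interferon receptors had no gene past either ratio among 8, 19 and 8 with enough UMIs, beside 7.81% and 3.67% of all genes. With the stricter set 1 of 7 growth factor receptors, *Csf2ra*, was at a ratio of 0.395 (0.178 to 0.814) and 1 of 19 secretory genes, *Sdf2l1*, at 0.480 (0.283 to 0.793), beside 3.94% of all genes at a ratio of at most 0.5. The genes of the secretory machinery amounted to 4244 CPM (3546 to 5039), 5663 CPM (5486 to 5844), 5982 CPM (5824 to 6143) and 6699 CPM (5889 to 7588), and 48.5% of the first value came from 1 of 3 cells. In cDC2s of the same libraries they were at 3814, 4449, 4414 and 4546 CPM and in cDC1s at 4410.2, 6801, 5155 and 4285 CPM, so that from 1 to 7 dpi pDCs were above cDC2s, and they were under cDC1s at 1 dpi and above them at 3 and 7 dpi. In the Uninjured library both values lay within the interval of the pDCs. *Il7r*, the interleukin 7 receptor of lymphoid cells, was at 0, 178, 192 and 624 CPM. *Flt3* was at 163, 184, 121 and 54.2 CPM.

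The lymphoid programme amounted to 1567, 3914, 2329 and 3065 CPM in the pDCs, against 178, 342, 253 and 171 CPM in cDC2s, and 1 of 7 genes with enough UMIs, *Ly6d*, was at a ratio of at most 0.5, beside 3.67% of all genes, and 0 of 7 in the stricter set, beside 3.94%. *Ighm*, the immunoglobulin mu chain, was at 424, 1362, 945 and 1003 CPM, and *Dntt* at 457, 214, 139 and 244 CPM. A list of 7 B cell markers such as *Pax5* and *Ms4a1* was at 97.9, 59.7, 106 and 0 CPM, the 8 T cell markers at 0, 78.7, 43.0 and 0 CPM and the 8 NK cell markers at 32.6, 83.1, 137 and 27.1 CPM, so that these lymphocyte lists were each under 150 CPM while *Ighm* was not. The 10 macrophage markers, of which the rule limits 3, were at 424, 175, 178 and 325 CPM. Endothelial, muscle, cartilage and erythroid genes were each at most 152 CPM at every time.

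Transitional dendritic cells share genes with pDCs and cDC2s. Of 11 genes known from them, 9 had enough UMIs, 5 were higher at 3 dpi (*Axl*, *Tmem176a*, *Tmem176b*, *Cd209a* and *Ms4a4c*) and 1 lower (*Lyz2*), with a median ratio of 2.29, beside 7.81% and 3.67% of all genes. With the stricter set 2 of 8 were higher and 2 lower, with a median ratio of 0.984, beside 3.87% and 3.94% of all genes, and the sum of the list went from a ratio of 1.14 (1.02 to 1.28) with all members to 0.674 (0.572 to 0.793). At 1 dpi 1 cell, kept in the stricter set, held 30.02% of the list's UMIs over all members. In the stricter set *Lyz2* had 165 of the list's 381 UMIs at 1 dpi and 17 of 247 at 3 dpi. The part of that cell in the change of the sum was not tested. *Axl*, a receptor kinase, had 30.6 and 94.9 CPM, a ratio of 3.10 (1.91 to 5.26) that was 6.03 (2.31 to 19.96) in the stricter set. *Cd209a*, a lectin of cDC2s, had 29.1 and 130.2 CPM, a ratio of 4.47 (2.77 to 7.58) that was 3.07 (1.79 to 5.46) in the stricter set. *Tmem176b* had a ratio of 2.29 (1.64 to 3.24) that was 0.665 (0.376 to 1.15) in the stricter set. Thus *Axl* and *Cd209a* kept their direction in the stricter set and *Tmem176b* did not.

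The immediate early genes, which tissue dissociation is known to raise, were abundant in every library at 40056, 30623, 24449 and 33060 CPM, with 0 of 16 past either ratio, beside 7.81% and 3.67% of all genes, and a median ratio of 0.880. In cDC2s they were at 41936, 29498, 26882 and 27349 CPM. Their part in the other results was not tested.

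**Figure D5:**
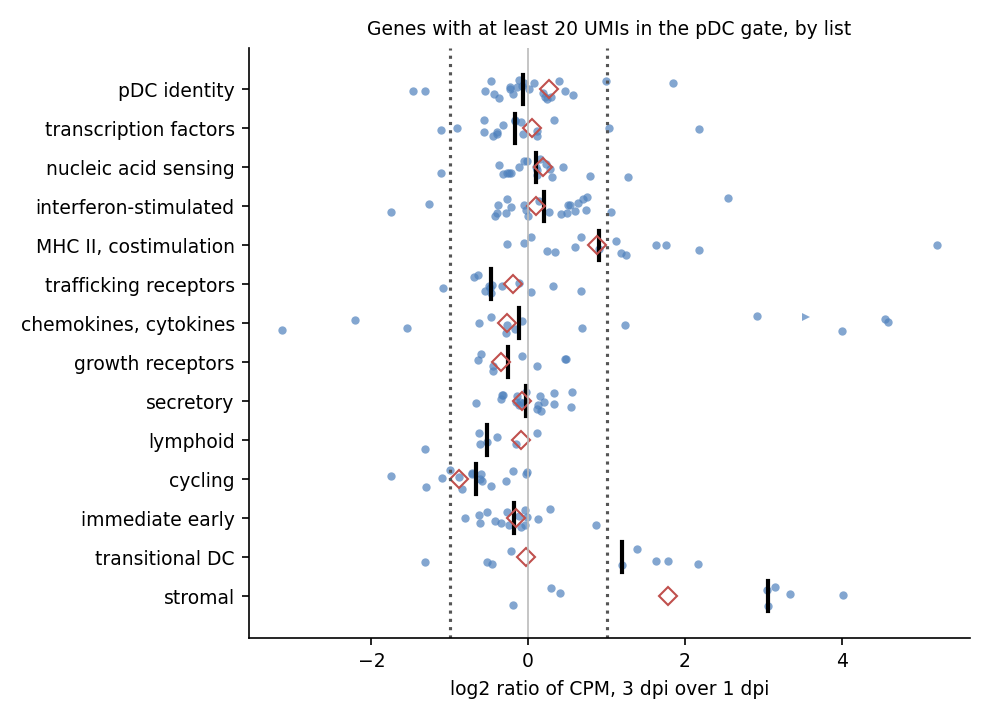
Log2 ratio of CPM at 3 dpi over 1 dpi for each gene with at least 20 UMIs, by 14 gene lists, with the median over all members as a black bar, the median in the stricter set as a red diamond, dotted lines at a ratio of 2 and 0.5, and triangles for genes at 0 in one library, drawn at a bound of 3 UMIs. The list of MHC class II and costimulation genes has a median ratio of 1.87 with all members and the cycling list one of 0.632.

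The largest differences between successive libraries included genes whose UMIs came from 1 cell and genes of other cell types. From the Uninjured library to 1 dpi, *S100a9* was higher, with 96.0% of its 1 dpi UMIs in 1 cell, as were *S100a8*, *Ngp*, *Camp*, *Prtn3* and *Elane*. The UMIs of *Elane* and *Mpo* at 1 dpi numbered 736 together, of which 98.6% were in 1 member that the stricter set kept. Spread over nearly all members were *Dennd4a*, with 453 UMIs in 61 of 62 members at 1 dpi and 0 in the 3 Uninjured ones, and *Cd69*, an early activation antigen that keeps leukocytes in tissue, at 97.9, 1274, 819 and 759 CPM. The ratio of *Cd69* between 1 dpi and Uninjured was 13.0 (4.44 to 63.2).

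From 1 to 3 dpi the first 8 genes in the higher direction were *Postn*, *Timp1*, *Tm4sf1*, *Thbs4*, *Ccl2*, *Prg4*, *Bgn* and *Ltbp2*, most of them matrix and tendon or fibroblast genes. *Postn* was at least 72.4-fold higher against a bound of 3 UMIs in the 1 dpi members. In the stricter set it had 0 and 22 UMIs. *Prg4* went from a ratio of 27.5 with all members to 1.19 (0.377 to 3.85) in the stricter set, *Bgn* from 21.9 to 1.99 (0.915 to 4.56) and *Ccl2* from 24.1 to 0.795 (0.355 to 1.74), so that none of these 3 was past a ratio of 2 there. *Timp1* was at 6.50 (2.24 to 25.7) and *Thbs4* at 5.72 (1.25 to 53.1), while *Tm4sf1* had 0 and 8 UMIs and *Ltbp2* 0 and 2. In the lower direction *Ctsg*, *Mpo*, *Prtn3* and *Elane* reflected the single 1 dpi member named before, while *Hist1h3f*, a histone of dividing cells, had 21 UMIs in 8 members and 1 UMI, and *Gm4258* had 57 UMIs in 23 members and 10 in 9.

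From 3 to 7 dpi the comparison rests on 8 members and 36872 UMIs. *Iglc2* and *Iglc3*, immunoglobulin lambda constant genes that share sequence and may share reads, were 22.5-fold (13.5 to 37.4) and 6.82-fold (4.75 to 9.61) higher at 7 dpi. *Cd8b1*, the CD8 beta chain, was at 0, 36.4, 99.3 and 569.5 CPM, a ratio of 5.73 (3.39 to 9.30), detected in 5 of 8 members at 7 dpi and in 25 of 122 at 3 dpi. *Pltp*, a phospholipid transfer protein, was detected in 8 of 8 members and was 3.66-fold (2.58 to 5.08) higher, and *Ctsl*, an endosomal protease, was 3.41-fold (2.61 to 4.40) higher. *Slpi* and *Rgcc* were also among the first 8. Members at 7 dpi were thus few, but their identity list, at 16923 CPM (15621 to 18305), was the highest of the 4 libraries, where it was 7770 CPM, 10916 CPM and 8965 CPM at the other times.

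Among the genes lower at 7 dpi, *Pim1*, a kinase induced by cytokines, had 653 UMIs in 108 of 122 members at 3 dpi and 1 UMI at 7 dpi, a ratio of 0.0376 (0.000951 to 0.210). *Vim*, an intermediate filament protein, was 0.0993 times as high (0.0399 to 0.205). *S100a9*, *S100a8*, *Camp*, *Ccl2* and *S100a4* were at 0 at 7 dpi, and *Dcn* was at 1 UMI. In the stricter set these first 5 were at 30.3, 18.5, 6.73, 21.9 and 69.0 CPM at 3 dpi, each under the 81.4 CPM that 3 UMIs make at 7 dpi, so that no difference could be seen there, and *Vim* was at 944 CPM. *Pim1*, at 721 CPM, and *Vim*, at 1912 CPM in 87 of 122 members, were thus detected in most members at 3 dpi.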

How the data were processed

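Single cells of *Nse-Bmp4* tibial muscle were measured by droplet-based (10x) RNA sequencing, 1 library of 3 pooled muscles per time point. The values used are the UMI counts per gene and cell that the authors deposited for each library. According to the submitters' processing notes they used Cell Ranger 5.0.0, Seurat 3.1.1 and build mm10. Whether the deposited counts precede any down-sampling between libraries is not given in the sources used here. The members and the gene lists were chosen with earlier results of these data known.

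The 4 libraries held 112317902, 91146335, 116346301 and 129007669 UMIs over 32285 genes. Counts were read as deposited. Cells over 10% mitochondrial UMIs were left out, which left 59824. Doublets were not removed by the rule, and Scrublet (scanpy 1.11.5, upper 7.5% of scores) was an alternative. UMIs were summed over the members of a library and given as counts per 1000000 (CPM) of their UMIs with exact Poisson intervals. Shares have Clopper-Pearson intervals, and ratios between libraries have the conditional binomial interval. PCR duplicates are removed by UMIs, but the intervals cover counting error only. A gene was counted as higher or lower at a ratio of at least 2 or at most 0.5 with at least 20 UMIs over both libraries, and such counts were made for 3 over 1 dpi only. Against 0 UMIs a fold is a bound at 3 UMIs per library. There was no test, since each time point is 1 library.

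Genes named are those of 28 lists (349 genes), the 8 genes in each direction of each successive comparison whose interval lay farthest from 1 (at least 20 UMIs in the higher library, no mitochondrial genes), and the 20 genes with the largest ratio to the mean of the 2 other gates in the lowest library. Cells that met more than 1 gate were left out. A further gate and some genes of the lists that were planned are not reported here. *Mx1* and *Mx2* are not analysed here. Positions are from GENCODE M21, which matched 32158 genes (99.6%), and promoters are from RefSeq. The ratios were tested on simulated counts of 3 over 1 dpi with 8030 genes, of which 200 were changed. The interval covered the true ratio for 98.5% of changed and 96.1% of unchanged genes, and 88% of the changed genes came out on the right side. These counts were drawn with counting noise only, which the interval assumes. They therefore check the calculation and cannot show the coverage where cells or animals differ. Python 3.11.15, numpy 2.4.6, scipy 1.17.1, pandas 2.3.3, anndata 0.12.19 and matplotlib 3.10.9 were used.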

Additional observations from a re-analysis of the deposited data

How the results depend on the processing

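Each time point is 1 library, so differences between animals cannot be told apart from differences between times, and 3 and 8 members in the Uninjured and 7 dpi libraries set wide intervals. No paired analysis was possible because each time point is 1 library and no test was made. Settings with the stricter set, without the 3 matching barcodes and without mitotic members were chosen after seeing the data. Of the single genes and lists, *Siglech* of at least 3 UMIs moved 12 of 295 beyond their interval, leaving out mitochondrial and ribosomal genes 0 of 295, equal weight per cell 54 of 295, the stricter set 110 of 289, Scrublet 62 of 290, thinning 156 of 268, leaving out mitotic members 74 of 283 and removing other-lineage cells 162 of 270. A further 3, 2, 2, 8 and 7 turned direction under the last 5 of these, counting only results past either ratio limit with all members. Results nearer to a ratio of 1 that turned direction are not in these counts. Where a value moved, the cause was not tested.

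The order of the shares, with 1 and 3 dpi over the Uninjured and 7 dpi libraries, held with each setting tried. The share of *Ptprc* cells at 3 dpi was 2.96% with a *Siglech* limit of 1 UMI and 1.87% in the stricter set. Thinned cells gave 0, 0.553, 0.980 and 0.167% in the 4 libraries, where the interval of 1 dpi overlapped each of the others. Over all cells the 4 shares were 0.0254, 0.571, 0.864 and 0.0347%. Removing every cell with 3 or more UMIs of another lineage, also from the denominator, gave 1.47, 19.0, 9.20 and 0%, which turned the order of 1 and 3 dpi, and it left no member at 7 dpi.

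The log2 ratio of the interferon-stimulated list between 1 dpi and Uninjured, -0.22, was 1.03 with *Siglech* of at least 3 UMIs, -0.89 without Scrublet doublets, -2.56 without other-lineage cells and -0.85 in the stricter set, so its direction is not settled. For 3 over 1 dpi, -0.27, it was -0.37, -0.14 and 0.79 under the first 3 of these and -0.13 with thinned members. For 7 over 3 dpi, 0.12, it was -0.59 with thinned members.

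The MHC class II sum of 3 over 1 dpi, 1.41 on the log2 scale, was 1.01 with *Siglech* of at least 3 UMIs, 1.58 without Scrublet doublets, 1.73 without other-lineage cells, 0.93 in the stricter set, 1.49 without the matching barcodes, 1.33 without mitotic members and 1.33 with equal weight per cell. The cycling list, -0.77, was -0.62, -1.21, -1.68, -0.91, -0.88, -0.071 and -0.86 under the same settings in the same order, and -1.04 with thinned members. The identity list, -0.28, was -0.17 without Scrublet doublets, 0.56 without other-lineage cells, 0.0045 in the stricter set, -0.22 without the matching barcodes, -0.10 with thinned members and -0.10 with equal weight.

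Among genes and lists past a ratio of 2 or 0.5 with all members, the direction of 3 over 1 dpi turned in these, given as log2 ratios. Without mitotic members *Mki67* was at 2.67, *Stmn1* at 0.36, *Lyz2* at 0.11, *Prtn3* at 2.08, *Camp* at -1.67, *Il6* at -1.50, *Des* at -1.50 and the muscle list at -0.99. Without other-lineage cells *Id2* was at -1.46, *Traf6* at 0.024, *Oasl1* at 0.024, *Ifi27l2a* at 0.36, *Camp* at -2.98, *Iglc2* at -0.49 and *Vim* at -0.37. In the stricter set *Ccl2* was at -0.33, *Tmem176b* at -0.59 and *Camp* at -1.64. In the stricter set *Siglech* turned to a ratio of 1.14 and the list of 4 pDC markers to 1.08 (0.835 with all members). Both describe the choice of cells, since *Siglech* and *Bst2* chose the members and *Irf8* the stricter set. Other results nearer to 1 also turned there, such as *Ccr9* at a ratio of 1.19, *Bcl11a* at 1.16 and the transitional dendritic cell list at 0.674. For the last of these, 1 cell of the stricter set held 30.02% of the list's UMIs over all 1 dpi members. The part of that cell in the turn was not tested. Thinned, *H2-DMb2* was at -0.96 and *Saa3* at 0.62. Without Scrublet doublets *Lyz2* was at 0.80 and *Saa3* at 0.72, and without the matching barcodes *Camp* was at -0.18. Counts of genes past a ratio of 2 among all genes were 627 with all members, 547 without the matching barcodes, 317 without mitotic members and 266 in the stricter set, and those past 0.5 were 295, 322, 197 and 271.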
